A study of Mus musculus with 4 samples.

Results

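The genes described here are those of the cytokines, chemokines and TNF superfamily ligands, the secreted or surface-bound proteins through which immune cells signal to one another. Members were chosen by a rule on gene symbols, drawn up with earlier results of these data known. It covered CC, CXC and C chemokines, numbered interleukins, colony stimulating factors, TNF, the lymphotoxins, the numbered TNF superfamily ligands and TGF-beta. Ccl5, Il4, Il5, Il13 and Il21 were left out by that rule. It took in 79 of the 22180 genes that had a probe set of their own on the array. A further 8 symbols, among them Ccl19, Ccl21a and Tnfsf13, lay only on probe sets annotated to several genes and were not analysed here.

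RNA of 4 CD4 T lineage populations from C57BL/6 mice at 8 weeks of age was hybridised to Affymetrix arrays, 1 array per population. The first population was sorted as CD4+CD62Lhi T cells out of the spleen of wild-type mice, and its array is called the labelled-naive array because it stood against that label. Classical Th1 cells (cTh1) were such wild-type spleen cells after 5 days on CD3/CD28 beads with 2 ng/ml IL-12, 50 U/ml IL-2 and 5 mg/ml anti-IL-4, as the labels give these doses. TT naive cells (CD4+CD62L+CXCR3-) and natural Th1 cells (nTh1, CD4+CD62L+CXCR3+) were sorted from the thymus of CIITAtg mice. The name CIITAtg stands for a transgene of CIITA, the regulator of MHC class II genes, and these sources do not name the promoter that drives it. All 4 populations share the strain background and the CD4 T lineage, and none is replicated. Genotype and organ therefore go together in every comparison of an array labelled as thymus with one labelled as spleen and cannot be told apart. The labels give the 5 days of culture for cTh1 alone, so every comparison that uses cTh1 carries the culture as well. In bulk RNA, fewer cells of a type and less RNA per cell cannot be told apart either.

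Chemokines guide cells along gradients by binding G-protein-coupled receptors, and are classed by the spacing of their first cysteines into CC, CXC and C chemokines. Interleukins and colony stimulating factors bind receptor chains that mostly signal through JAK kinases and STAT factors. TNF superfamily ligands are trimers that cluster receptors of the TNF receptor superfamily, and many are induced on T cells by antigen receptor and CD28 signals. A Th1 cell is known above all for interferon gamma, and also for TNF and lymphotoxin. Naive T cells are known to carry little mRNA of most of these ligands.

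Values are log2 levels after RMA (a normalization that brings all arrays to a common distribution), and differences are the first array minus the second. A member was taken into a comparison if it reached 6.61, the median of all values, on 1 or both of the arrays compared. This is a filter, not a test of detection. With 1 array per population no difference has a replicate check and no test was possible. The only error to be had was the SD of the difference between probe sets of the same gene. It was 0.26 for nTh1 over TT naive, 0.40 for cTh1 over the labelled-naive array and 0.48 for nTh1 over cTh1. It was 0.30 for the labelled-naive array over TT naive, 0.44 for cTh1 over TT naive and 0.37 for nTh1 over the labelled-naive array. It leaves out the spread between animals, sorts and arrays. The 6 comparisons share their arrays, so they are not independent of one another.

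The sorts were checked first, and the labelled-naive array had high levels of genes that naive cells are known to carry at low level. Cd4 lay between 12.33 and 12.72 on the 4 arrays, and no T cell identity gene differed by 2-fold. Of the sort markers, Cxcr3 was at 7.76 in TT naive and 9.91 in nTh1 cells, but also at 9.80 on the labelled-naive array. That array also had Ifng at 8.80, against 5.88 in TT naive, Tbx21, which encodes the Th1 factor T-bet, at 9.81, against 7.11, and Zbtb16, which encodes PLZF, a factor of innate-like lymphocytes, at 12.23, against 9.36 in TT naive, 7.31 in cTh1 and 9.88 in nTh1. The Y-linked Eif2s3y split the arrays in another way, with 8.61 on the labelled-naive array and 8.55 in TT naive, while cTh1 gave 4.97 and nTh1 5.16. Xist, made from the inactive X chromosome, lay between 12.56 and 13.25 on all 4 arrays. The animals behind nTh1 and TT naive, and behind cTh1 and the labelled-naive array, thus differed in Y-linked transcripts, which cannot be told apart from the populations. Of the MHC class II genes, H2-Aa was at 12.66 on the labelled-naive array, 12.29 in TT naive, 10.73 in cTh1 and 12.66 in nTh1. H2-Ab1 was at 13.41, 13.06, 12.02 and 13.39 in that order, and Ciita itself at 7.59, 7.28, 8.00 and 7.72. For both class II genes the labelled-naive array thus lay near the arrays labelled CIITAtg, and cTh1 lay below them. The labelled-naive array may not hold the cells of its label, and these values do not settle it. Every result that uses it depends on that label, and such results are given beside the same comparison with TT naive.

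Promoter sequences of members on which the results turn are shown first, because these genes had unlike patterns over the arrays. Each runs from 250 bases before to 50 bases after a RefSeq transcription start on GRCm38.p6, 5′ to 3′ on the gene's own strand. Xcl1 (chr1:164935473-164935772, minus strand) was highest on the labelled-naive array and in nTh1 cells. Ccl3 (chr11:83649329-83649628, minus strand) was high in cTh1 and nTh1 cells. Tnf (chr17:35201958-35202257, minus strand) and its neighbour Lta (chr17:35205302-35205601, minus strand) were highest in cTh1 and lowest in nTh1 cells. Csf2 (chr11:54249850-54250149, minus strand) was high in cTh1 cells on 1 of its 2 probe sets. Capitals mark matches, on either strand, to the TATA box letters TATAAA, the AP-1 letters TGANTCA, the NF-kB consensus or the T-box core AGGTGT.
Xcl1: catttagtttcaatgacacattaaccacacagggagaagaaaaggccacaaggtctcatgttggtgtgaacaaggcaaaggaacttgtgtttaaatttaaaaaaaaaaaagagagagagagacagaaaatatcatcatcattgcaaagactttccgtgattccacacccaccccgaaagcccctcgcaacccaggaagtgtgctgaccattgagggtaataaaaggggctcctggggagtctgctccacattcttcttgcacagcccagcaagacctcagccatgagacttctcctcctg
Ccl3: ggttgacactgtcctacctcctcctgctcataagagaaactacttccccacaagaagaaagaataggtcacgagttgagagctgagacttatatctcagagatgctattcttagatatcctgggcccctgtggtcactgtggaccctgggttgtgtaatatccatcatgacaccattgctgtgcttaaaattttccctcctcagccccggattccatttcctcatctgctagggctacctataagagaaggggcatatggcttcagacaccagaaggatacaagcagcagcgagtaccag
Tnf: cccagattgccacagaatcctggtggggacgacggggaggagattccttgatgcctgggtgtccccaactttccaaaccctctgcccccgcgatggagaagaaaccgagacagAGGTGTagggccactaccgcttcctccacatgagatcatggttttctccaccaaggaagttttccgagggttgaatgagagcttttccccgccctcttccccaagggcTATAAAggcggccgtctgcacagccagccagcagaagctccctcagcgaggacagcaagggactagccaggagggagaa
Lta: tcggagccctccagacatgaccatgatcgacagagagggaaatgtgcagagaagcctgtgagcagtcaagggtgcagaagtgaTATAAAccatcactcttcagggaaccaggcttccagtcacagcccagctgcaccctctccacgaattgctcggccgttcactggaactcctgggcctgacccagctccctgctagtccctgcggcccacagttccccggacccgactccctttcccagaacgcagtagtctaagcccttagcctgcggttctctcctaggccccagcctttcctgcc
Csf2: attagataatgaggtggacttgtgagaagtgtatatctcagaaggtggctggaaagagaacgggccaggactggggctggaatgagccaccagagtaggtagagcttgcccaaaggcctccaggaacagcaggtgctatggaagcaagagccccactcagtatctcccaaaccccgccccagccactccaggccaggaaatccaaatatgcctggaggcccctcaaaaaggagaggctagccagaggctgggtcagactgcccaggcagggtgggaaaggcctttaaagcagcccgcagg
The matches were TATAAA at bases 222 to 227 and AGGTGT at bases 114 to 119 of the Tnf window, and TATAAA at bases 84 to 89 of the Lta window, counted from the window's first base. No matches overlapped, and the windows of Xcl1, Ccl3 and Csf2 held none of these letters.

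The RefSeq table held promoters for 56 of the 79 members, in 65 windows. TATAAA was present in 23 of the 65 windows (35.4%), against 13.6% of all 32851 windows of the same length. TGANTCA was present in 14 (21.5%), against 7.81% of all windows, and the NF-kB consensus also in 14, against 8.46%. The T-box core AGGTGT was present in 9 (13.8%), near the 13.7% of all windows. Windows of 1 gene overlap in part, and a match is a description of letters, not of binding.

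Of the 79 members, 42 reached the level filter on at least 1 array, 23 on all 4 arrays, and 37 on none. Among the 42, 18 had a range of 2-fold or more over the 4 arrays (42.9%), against 17.9% of the 13238 genes that reached the filter. The median range was 0.91 for these members and 0.51 for all such genes. A member that reached the filter on 1 array alone had to differ to some degree, so these shares describe the arrays only. Il10, Ccl22, Tnfsf4, Tnfsf13b, Ccl17 and Ccl6 of the 18 reached it on 1 array alone. Tgfb2 and Il12a did so too, with ranges under 2-fold. Of the 18, 10 were highest in cTh1, 4 on the labelled-naive array, 4 in nTh1 and 0 in TT naive cells. Among all 2365 genes with such a range, the shares were 52.0% highest in cTh1, 22.5% on the labelled-naive array, 17.5% in nTh1 and 8.12% in TT naive. The members' 10 of 18 in cTh1 (55.6%) and 4 of 18 on the labelled-naive array (22.2%) lay near those shares.

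**Figure D1:**
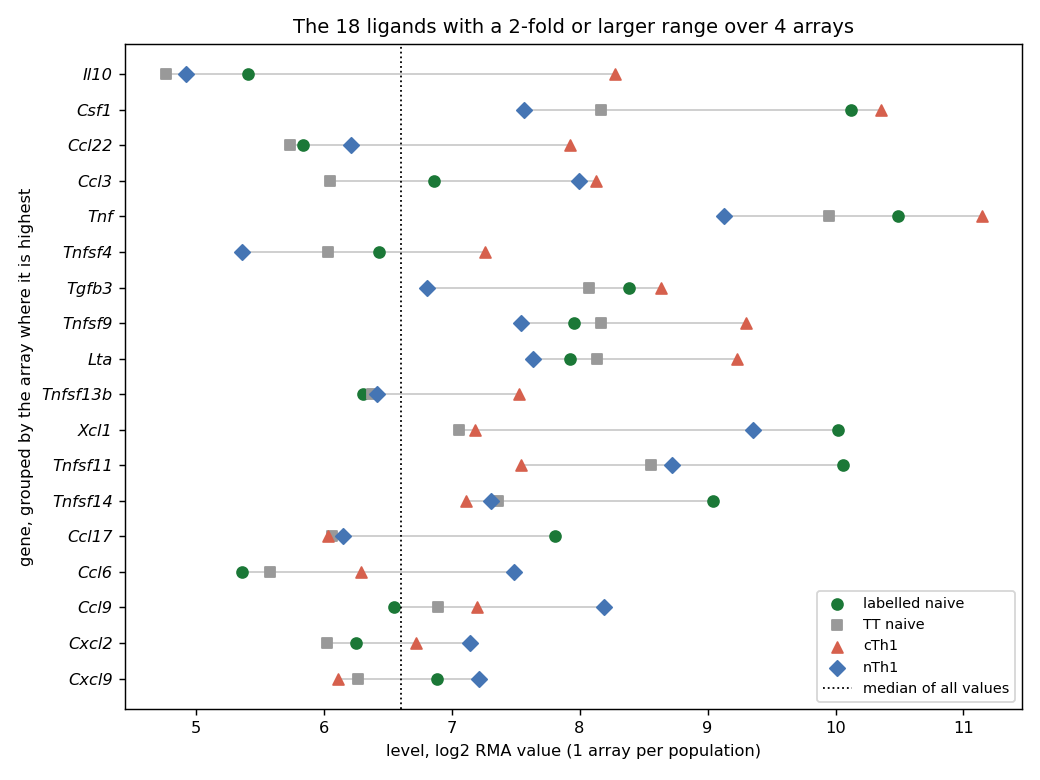
Levels (log2 RMA values, horizontal axis) of the 18 members that reached the level filter and had a range of 2-fold or more, 1 point per array, grouped by the array where each was highest. From Il10 to Tnfsf13b the cTh1 triangle lies farthest right, from Xcl1 to Ccl17 the circle of the labelled-naive array, and from Ccl6 to Cxcl9 the nTh1 diamond. The dotted line is the median of all values, 6.61, and there are no error bars because each population had 1 array.

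Among the chemokines, Xcl1 had the widest range. XCL1, or lymphotactin, is the C chemokine that T and NK cells make and that draws XCR1-bearing dendritic cells. Xcl1 was at 10.02 on the labelled-naive array, 7.05 in TT naive, 7.18 in cTh1 and 9.36 in nTh1 cells. The labelled-naive array and nTh1 were thus high and the other arrays low. The difference was 2.30 for nTh1 over TT naive (4.93-fold) and 2.17 for nTh1 over cTh1. The labelled-naive array stood 2.96 above TT naive and 2.83 above cTh1, while cTh1 and TT naive differed by 0.13, less than the spread between probe sets. Of the NK and CD8 T cell markers, 3 of 6 exceeded 2-fold in nTh1 over TT naive and none the other way, with Prf1 at 10.81 and 8.79. On the labelled-naive array 2 of 7 did so over TT naive, Klrk1 at 8.00 and 5.15 and Gzma at 7.83 and 5.94. In cTh1, where Xcl1 was low, 7 of 8 exceeded 2-fold over TT naive and none the other way. The summed level of the 11 measured markers was 11.06 on the labelled-naive array, 10.78 in TT naive, 13.04 in cTh1 and 11.89 in nTh1. The NK receptor gene Ncr1 stayed below the filter on all 4 arrays, between 5.37 and 5.75. The part of these markers in the Xcl1 values was not tested.

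The inflammatory CC chemokines recruit monocytes and effector T cells to sites of inflammation. Of their 12 members, 6 reached the filter in nTh1 or TT naive, and nTh1 exceeded TT naive by 2-fold or more in 3 of these, against 1.41% of all genes. Of the 3, Ccl3 and Ccl6 were under the filter in TT naive. Ccl3 (MIP-1 alpha), an inflammatory chemokine of T cells and macrophages, was at 6.86 on the labelled-naive array, 6.05 in TT naive, 8.13 in cTh1 and 8.00 in nTh1. It was higher in nTh1 than in TT naive by 1.95 and higher in cTh1 than in TT naive by 2.08. Against the labelled-naive array these differences were 1.14 for nTh1 and 1.27 for cTh1, and cTh1 and nTh1 lay closer than the spread between probe sets. Ccl4 (MIP-1 beta), the neighbouring gene, was at 7.07, 6.61, 7.19 and 7.08 on the same arrays in the same order. Its range of 0.58 was under 2-fold.

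Ccl6 and Ccl9, CCR1 ligands known mainly from myeloid cells, were highest in nTh1 cells. Ccl6 was at 5.37 on the labelled-naive array, 5.58 in TT naive, 6.29 in cTh1 and 7.49 in nTh1. Ccl9 was at 6.55, 6.89, 7.20 and 8.19 in that order. nTh1 stood above TT naive by 1.91 for Ccl6 and 1.30 for Ccl9. Over cTh1 it stood 1.19 higher for Ccl6 and 1.00 for Ccl9, the second just under 2-fold (1.99-fold). Myeloid markers were higher on the same array. In nTh1 over TT naive, 9 of the 16 myeloid markers at the filter exceeded 2-fold upward and none downward. Lyz2, the macrophage and neutrophil lysozyme, was at 7.92, 6.05, 7.17 and 9.44 in the same order of arrays, and Ngp, a neutrophil granule gene, was at 5.25, 5.29, 5.66 and 8.79. The summed level of the 19 measured myeloid markers was 11.74, 11.04, 11.52 and 12.35 on the log2 scale, and its part in the chemokine values was not tested.

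The other inflammatory CC chemokines varied little. Ccl8 reached 6.31 in nTh1 against 5.38 to 5.73 on the other arrays, under the filter on all 4. Ccl2, a monocyte attractant, lay between 6.53 and 6.59, Ccl7 between 6.69 and 6.96, and Ccl24, an eosinophil attractant, between 6.33 and 6.93. Ccl1, Ccl11, Ccl12 and Ccl26 stayed below the filter on all 4 arrays.

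Of the CXC chemokines, Cxcl2 and Cxcl9 reached a 2-fold range. Cxcl2, a neutrophil attractant that binds CXCR2, was at 6.25 on the labelled-naive array, 6.03 in TT naive, 6.72 in cTh1 and 7.14 in nTh1, with nTh1 higher than TT naive by 1.12. Cxcl9, an interferon-induced ligand of the sort marker CXCR3, was at 6.89, 6.27, 6.11 and 7.21 in the same order. It was higher in nTh1 than in cTh1 by 1.10, which became 0.92 when each array was centred on its median. In nTh1 over TT naive it stood at 0.94, just under 2-fold. Cxcl10, a further CXCR3 ligand, was at 6.81, 6.03, 6.92 and 6.27, so that cTh1 and the labelled-naive array were the higher ones. Cxcl11 reached the filter on no array. Cxcl16, the membrane-bound ligand of CXCR6, was at 7.81, 7.19, 7.15 and 8.11. The macrophage complement gene C1qb was at 8.59, 6.64, 6.61 and 8.98, and C1qc at 6.92, 5.84, 5.90 and 7.30. On the labelled-naive array 5 of 12 myeloid markers exceeded TT naive by 2-fold and 1 was lower. The part of these markers in the CXC chemokine values, Cxcl2 included, was not tested. The genes Cxcl1, Cxcl3, Cxcl5, Cxcl14, Cxcl15 and Cxcl17 had ranges of 0.08 to 0.38. All but Cxcl17 stayed below the filter on every array.

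Ccl17 and Ccl22 bind the same receptor, CCR4, which is known from Th2, regulatory and skin-homing T cells, and they were high on different arrays. Ccl17 was at 7.81 on the labelled-naive array, 6.06 in TT naive, 6.03 in cTh1 and 6.15 in nTh1. Ccl22 was at 5.84, 5.74, 7.93 and 6.21 in the same order. The labelled-naive array thus stood apart for Ccl17, by 1.74 over TT naive, and cTh1 for Ccl22, by 2.18 over TT naive and 2.09 over the labelled-naive array. Ccr4 itself was at 11.28 on the labelled-naive array, 9.82 in TT naive, 9.17 in cTh1 and 9.37 in nTh1.

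Chemokines of lymphoid tissue differed less. Ccl25, the CCR9 ligand of thymus and gut epithelium, was at 8.13, 8.58, 7.79 and 7.81 on the labelled-naive array, TT naive, cTh1 and nTh1. Its range of 0.79 placed TT naive highest. Ccl28, a mucosal chemokine, lay between 6.60 and 7.03, and Ccl20, the CCR6 ligand, between 5.75 and 6.39, below the filter. Cxcl12, the CXCR4 ligand of stroma, lay between 6.64 and 6.96, and Cxcl13, the CXCR5 ligand of B cell follicles, between 6.45 and 7.01. Ccl27a, a skin chemokine gene with near-identical copies and therefore uncertain, was at 6.33, 6.63, 6.76 and 7.14 on the probe set used. Thymic epithelial markers showed no 2-fold difference between nTh1 and TT naive in the 5 that reached the filter.

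Among the interleukins, Il10 was the member that varied most. IL-10 restrains antigen-presenting cells and is made by regulatory cells and by Th1 cells late in a response. Il10 was at 5.41 on the labelled-naive array, 4.77 in TT naive, 8.28 in cTh1 and 4.92 in nTh1. The cTh1 array alone lay above the filter, so Il10 entered comparisons with cTh1 only. The difference was 3.51 over TT naive (11.4-fold), 2.87 over the labelled-naive array and 3.36 over nTh1. B cells, which can make IL-10, had markers higher on the same array, with Cd79a at 10.29 in cTh1 and 6.50 in TT naive, and their part was not tested. Il10ra, the ligand-binding receptor chain, was highest on the same array, at 9.47, 9.72, 11.09 and 9.19. The neighbours of Il10 in the genome and in the IL-10 family, Il19, Il20 and Il24, had ranges of 0.20, 0.16 and 0.60. All of these neighbours stayed below the filter on every array.

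The IL-12 family joins an alpha chain to a beta chain. Il12a, the p35 chain shared by IL-12 and IL-35, was at 6.24 on the labelled-naive array, 6.04 in TT naive, 7.02 in cTh1 and 6.19 in nTh1. The 0.98 of cTh1 over TT naive was just under 2-fold. Il12b, the p40 chain, lay between 5.89 and 6.16, below the filter on all 4 arrays, and Il23a between 6.11 and 6.34. Il27 lay between 7.62 and 7.80. Ebi3, the beta chain of IL-27 and IL-35, is outside the symbol rule and was at 7.33, 6.77, 9.58 and 7.14 in the order given, highest in cTh1.

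The remaining interleukins differed by less than 2-fold or stayed below the filter. Il2, the growth factor of activated T cells, was at 5.46 in cTh1 and between 4.55 and 4.82 elsewhere. Il18, an IL-1 family partner of IL-12, was at 4.28 on the labelled-naive array and 5.47 in cTh1, and Il1a at 5.62 on the labelled-naive array and 4.36 in TT naive, all below the filter. Il16, a CD4 ligand that lymphocytes express constitutively, had a range of 0.21. Il17a and Il17f, cytokines of Th17 cells, had ranges of 0.52 and 0.42, and Il17c and Il17d of 0.63 and 0.23. Il25, an IL-17 family cytokine of tuft cells, lay between 6.72 and 6.96. Il6 lay between 3.24 and 3.55 and Il22 between 2.22 and 2.34, both below the filter. Il1b, Il7, Il9, Il11, Il15, Il17b, Il31, Il33 and Il34 also stayed below it on all 4 arrays, with ranges of 0.08 to 0.85.

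Csf1 (M-CSF), which sustains macrophages through CSF1R, divided the arrays in pairs. It was at 10.12 on the labelled-naive array, 8.17 in TT naive, 10.36 in cTh1 and 7.57 in nTh1, so both arrays labelled as spleen were high and both labelled as thymus low. The difference was 2.79 between cTh1 and nTh1 (6.92-fold), 2.19 between cTh1 and TT naive and 1.96 between the labelled-naive array and TT naive. The labelled-naive array and cTh1 differed by less than the spread between probe sets. Csf1r went another way, at 7.22, 6.29, 6.65 and 7.43 in the order given.

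Csf2 (GM-CSF), a cytokine of activated T cells, depended on the probe set. The probe set with the higher mean, which the rule uses, was at 5.84 on the labelled-naive array, 6.20 in TT naive, 6.21 in cTh1 and 6.15 in nTh1, below the filter throughout. The other probe set was at 4.85, 4.89, 7.87 and 4.94, high in cTh1 alone. Csf2 therefore counts among the 37 members below the filter, and with the mean of its probe sets it joined those at least 2-fold higher in cTh1. Il3, its neighbour in the genome, stayed below the filter with a range of 0.29, and Csf3 had a range of 0.41.

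**Figure D2:**
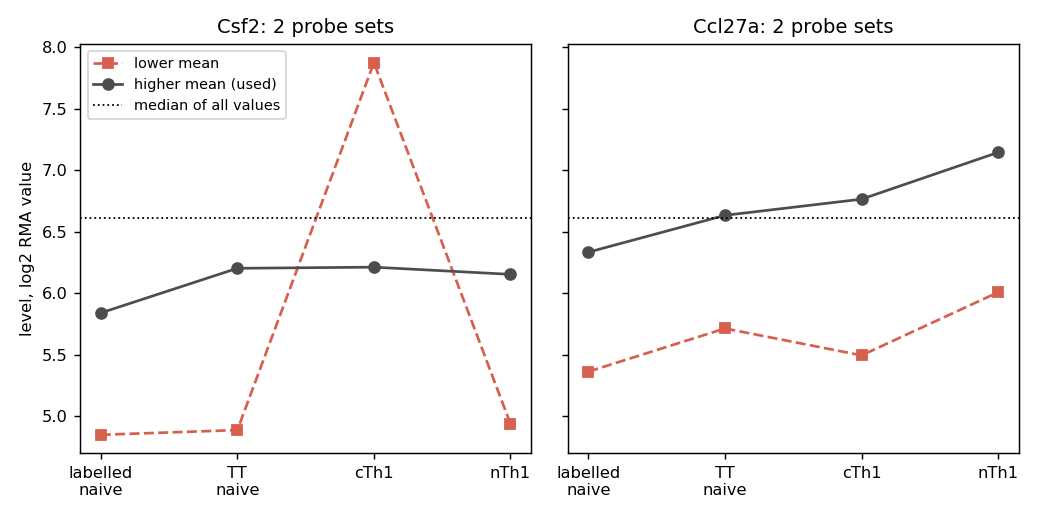
Levels (log2 RMA values, vertical axis) of both probe sets of Csf2 and of Ccl27a, the members with 2 probe sets, on the 4 arrays. The Csf2 probe set with the lower mean is at 7.87 in cTh1 and between 4.85 and 4.94 elsewhere, while the one used stays between 5.84 and 6.21. Lines only join the points of 1 probe set, and each point is 1 array.

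The genes of TNF and the lymphotoxins lie side by side in the MHC region and were all highest in cTh1. Tnf, the inflammatory cytokine that acts through TNFR1 and TNFR2, was at 10.49 on the labelled-naive array, 9.95 in TT naive, 11.14 in cTh1 and 9.13 in nTh1. Lta (lymphotoxin alpha), a Th1 cytokine, was at 7.93, 8.13, 9.23 and 7.64 in the same order. Ltb, which anchors lymphotoxin to the membrane, was at 10.98, 11.36, 11.93 and 11.05. nTh1 was the lowest array for Tnf and Lta, and the labelled-naive array for Ltb. Over TT naive, cTh1 was higher by 1.19 for Tnf and 1.10 for Lta. nTh1 was lower than cTh1 by 2.02 for Tnf and 1.59 for Lta, whereas Tnf in nTh1 stood at -0.82 over TT naive, under 2-fold.

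The cTh1 array carried markers of other lymphocytes beside these values. Of the 10 B cell markers at the filter, 7 exceeded 2-fold in cTh1 over TT naive and none the other way, with Cd79a at 10.29 in cTh1 and 6.50 in TT naive. The summed level of the 12 measured B cell markers was 11.58 on the labelled-naive array, 12.31 in TT naive, 13.57 in cTh1 and 12.57 in nTh1. Ighm weighed most in this sum on every array, at 11.10, 12.03, 12.77 and 12.16 in that order. In the NK and CD8 T cell list 7 of 8 were at least 2-fold higher in cTh1 than in TT naive, Cd8a among them at 10.31 and 6.22. B and CD8 T cells also express Ltb, Lta and Tnf. The part of these markers in these values, and in the other members that were highest in cTh1, was not tested.

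Tnfsf4 and Tnfsf9, TNF superfamily ligands that costimulate T cells, were highest in cTh1 and lowest in nTh1. Tnfsf4 (OX40 ligand) was at 6.44 on the labelled-naive array, 6.03 in TT naive, 7.26 in cTh1 and 5.37 in nTh1. Tnfsf9 (4-1BB ligand) was at 7.96, 8.17, 9.30 and 7.54 in the same order. nTh1 was lower than cTh1 by 1.89 for Tnfsf4 and 1.76 for Tnfsf9, and cTh1 was higher than TT naive by 1.22 and 1.13. Their receptors had the same extremes. Tnfrsf4 (OX40) was at 9.30, 9.46, 11.23 and 8.52, and Tnfrsf9 (4-1BB) at 10.42, 9.93, 11.38 and 8.55. Tnfsf8 (CD30 ligand) lay between 9.12 and 9.92, under 2-fold, while its receptor Tnfrsf8 (CD30) was at 9.45 in cTh1 and between 6.68 and 7.00 elsewhere.

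Tnfsf11 and Tnfsf14 were highest on the labelled-naive array. Tnfsf11 (RANK ligand), which drives osteoclasts and thymic medullary epithelium through RANK, was at 10.06 on the labelled-naive array, 8.56 in TT naive, 7.54 in cTh1 and 8.72 in nTh1. It was lower in cTh1 than in TT naive by 1.02, a difference of -0.90 when the arrays were centred. Tnfsf14 (LIGHT), the ligand of HVEM and the lymphotoxin beta receptor, was at 9.04, 7.36, 7.12 and 7.31. Apart from the labelled-naive array, its lowest level was in cTh1, which differed from TT naive by -0.25, less than the spread between probe sets. Their receptors varied little, with ranges of 0.41 for Tnfrsf11a (RANK), 0.37 for Tnfrsf14 (HVEM) and 0.29 for Ltbr.

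Tnfsf13b (BAFF), a survival factor of B cells, was at 6.31, 6.38, 7.53 and 6.42 on the labelled-naive array, TT naive, cTh1 and nTh1. It thus passed the filter in cTh1 alone, higher than TT naive by 1.15. Its receptor Tnfrsf13c was at 9.96 in cTh1 and between 7.88 and 8.07 elsewhere, beside the B cell markers given above. Tnfsf10 (TRAIL), a death receptor ligand, lay between 8.47 and 9.04. Tnfsf15 and Tnfsf18 stayed below the filter on all 4 arrays.

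TGF-beta restrains T cells and directs regulatory and Th17 fates. Tgfb1, the form known from lymphocytes, was at 11.62 on the labelled-naive array, 11.54 in TT naive, 11.67 in cTh1 and 11.11 in nTh1. Tgfb3 was at 8.38, 8.08, 8.64 and 6.81, so that nTh1 lay below all other arrays for both. For Tgfb3 nTh1 was lower than TT naive by 1.27, than the labelled-naive array by 1.58 and than cTh1 by 1.83. It was the 1 member at least 2-fold lower in nTh1 than in TT naive. Tgfb2 had a range of 0.32, and Tgfbr2, the receptor chain that binds the ligand, of 0.36.

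**Figure D3:**
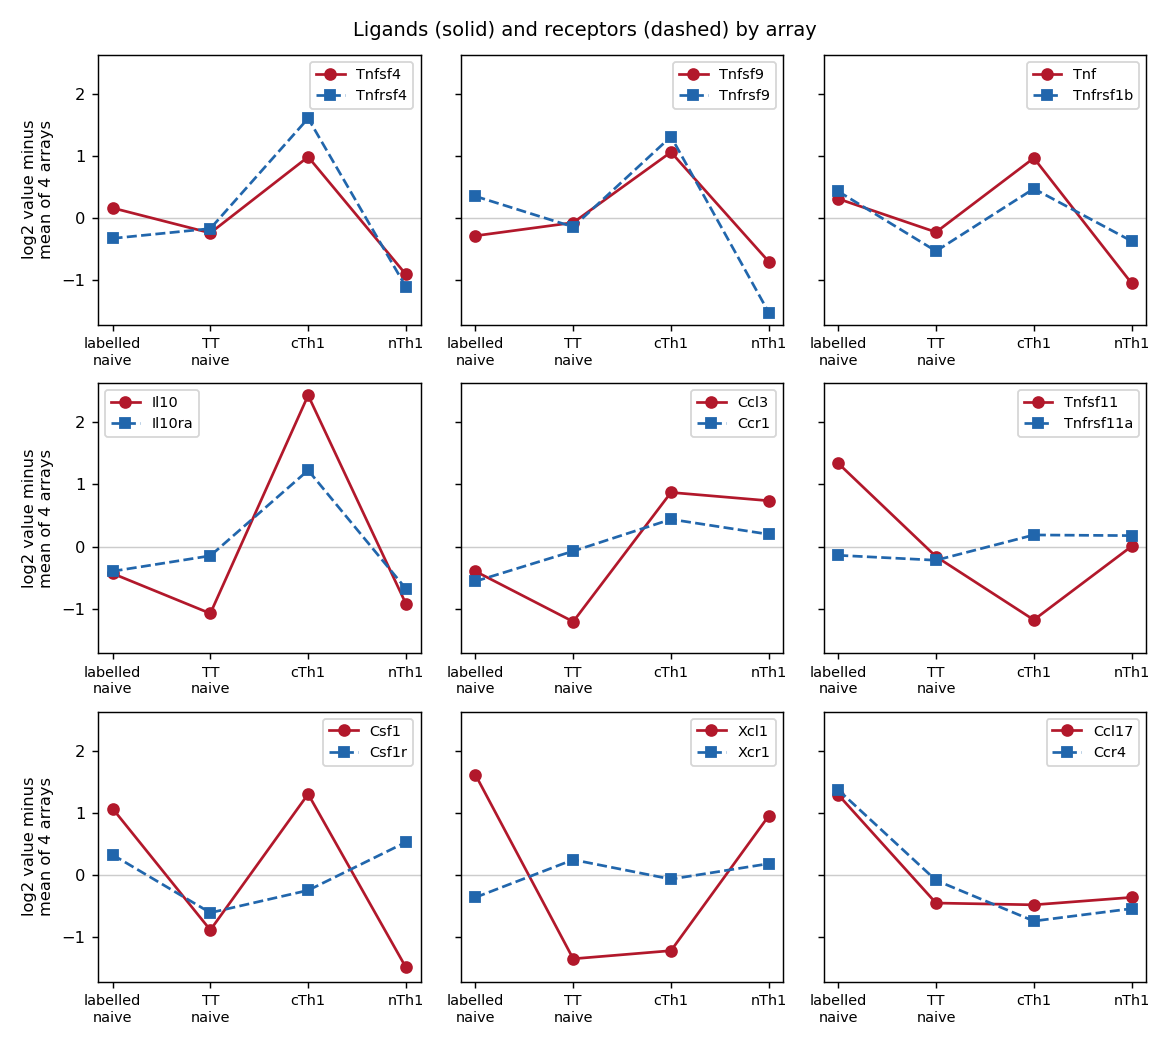
Levels of 9 ligands (solid, circles) and a receptor of each (dashed, squares) on the 4 arrays, as the log2 value minus the gene's own mean over the arrays, since levels of different probe sets are not compared. Tnfsf4, Tnfsf9 and Il10 peak in cTh1 together with Tnfrsf4, Tnfrsf9 and Il10ra, and Ccl17 with Ccr4 on the labelled-naive array. Tnfsf11, Csf1 and Xcl1 have other patterns than Tnfrsf11a, Csf1r and Xcr1. Lines only join points, and each point is 1 array.

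Setting nTh1 beside TT naive contrasts CXCR3+ against CXCR3- thymocytes of the same labelled genotype, with Y-linked transcripts differing too. Of the 34 members at the filter, nTh1 exceeded TT naive by 2-fold or more in 5 (14.7%), against 1.41% of all genes. These were Xcl1, Ccl3, Ccl6, Ccl9 and Cxcl2. Ccl3, Ccl6 and Cxcl2 were under the filter in TT naive and entered through nTh1 alone. All 5 are chemokines, but chemokines were also common among the 34. These held 6 inflammatory CC, 3 homeostatic and tissue CC and 4 other CXC chemokines. They also held 1 neutrophil-attracting CXC chemokine, 1 CXCR3 ligand and 1 C chemokine. Markers of other cells were higher by 2-fold in the same comparison, with 9 of 16 myeloid, 3 of 6 NK and CD8 T cell, 2 of 7 B cell and 1 of 2 mast cell and basophil markers, and none lower. Their part in these counts was not tested. Tgfb3 was the 1 lower member (2.94%), against 1.09% of all genes. The members' median difference was 0.12, and that of all genes -0.05. Ifng, outside the symbol rule, was higher by 1.46. Among chemokine receptors 2 of 15 were higher by that measure, Cxcr3 and Ccr8, and none lower. CXCR3 is the marker by which these populations were sorted apart, so the Cxcr3 difference was set by the sort. Among interleukin and colony stimulating factor receptors 5 of 27 were higher and 1 lower. Among TNF and lymphotoxin receptors none of 16 was higher and 2 were lower.

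The comparison of cTh1 with naive cells asks what differs after Th1 culture, as far as the labelled-naive array holds naive cells. Against the labelled-naive array, cTh1 was higher by 2-fold or more in 6 of 40 members (5.13% of all genes) and lower in 4 (3.35% of all genes). The higher ones were Il10, Ccl22, Tnfsf9, Lta, Ccl3 and Tnfsf13b, and the lower ones Xcl1, Tnfsf11, Tnfsf14 and Ccl17. Against TT naive, 9 of 37 were higher (7.24% of all genes) and 1 lower, Tnfsf11 (3.02% of all genes). The higher ones were those 6 with Csf1, Tnfsf4 and Tnf. With each array centred on its median, 10 were higher and none lower, because Il12a passed the threshold and Tnfsf11 missed it. Xcl1, Tnfsf14 and Ccl17 were thus lower in cTh1 only with the labelled-naive array as baseline, and against TT naive their differences were 0.13, -0.25 and -0.03. The 6 that were higher were so with both baselines, but both comparisons use the same cTh1 array and are no independent check. Il10, Ccl22, Tnfsf13b and Tnfsf4 were under the filter on both baselines and entered through cTh1 alone. Ccl3 was under it in TT naive but not on the labelled-naive array, so it entered the TT naive comparison through cTh1 alone. Ccl17 was under it in cTh1 and entered as lower through the labelled-naive array alone. Over the labelled-naive array, 8 of 10 B cell and 5 of 8 NK and CD8 T cell markers were also higher by 2-fold and none lower. Their part in these counts was not tested. TNF and lymphotoxin receptors had 7 of 16 higher than TT naive and none lower.

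Natural and classical Th1 cells are the populations that the series title sets side by side. By their labels they differ in organ and genotype, and only cTh1 was cultured on CD3/CD28 beads. These cannot be told apart from the kind of Th1 cell. Of 40 members at the filter, 9 were at least 2-fold lower in nTh1 (22.5%), against 8.3% of all genes, and 4 were higher, against 3.46%. Lower were Il10, Csf1, Tnf, Tnfsf4, Tgfb3, Tnfsf9, Ccl22, Lta and Tnfsf13b, of which 5 belong to the TNF superfamily. Higher were Xcl1, Ccl6, Tnfsf11 and Cxcl9. Of the lower ones, Il10, Tnfsf4, Ccl22 and Tnfsf13b were under the filter in nTh1 and entered through cTh1 alone. Of the higher ones, Ccl6 and Cxcl9 were under it in cTh1 and entered through nTh1 alone. In the same comparison 6 of 10 B cell markers were at least 2-fold lower in nTh1 and 0 higher. Of the NK and CD8 T cell markers 5 of 8 were lower and 1 higher, and of the myeloid markers 6 of 17 were higher and 1 lower. Their part in these counts was not tested. Centred arrays gave 11 lower and 3 higher members, and moved all genes from 1066 lower and 444 higher to 1491 and 278. The centring shift between these arrays was 0.18. Among ligands outside the symbol rule, 5 of 9 were at least 2-fold lower in nTh1 and none higher, Ifng and Ebi3 among them. TNF and lymphotoxin receptors had 7 of 16 lower and none higher, with the BAFF receptor gene Tnfrsf13c among the lower ones. Regulators of cytokine mRNA and transcription, such as Zfp36 and Rel, had none of 15 at 2-fold in either direction.

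The labelled-naive array differed from TT naive in 5 of 35 members that were at least 2-fold higher (14.3%), against 2.59% of all genes, and in 0 that were lower, against 0.795% of all genes. These were Xcl1, Csf1, Ccl17, Tnfsf14 and Tnfsf11, of which Ccl17 was under the filter in TT naive and entered through the labelled-naive array alone. Among chemokine receptors, 7 of 15 were higher there by 2-fold or more and none lower, with Ccr10, the receptor for CCL27 and CCL28, at 9.03 against 6.67. In nTh1 over the labelled-naive array, 3 of 37 members were higher, Ccl6, Ccl9 and Ccl3 (1.93% of all genes). In that comparison 6 were lower, namely Csf1, Tnfsf14, Ccl17, Tgfb3, Tnf and Tnfsf11 (4.43% of all genes). Ccl6 and Ccl9 entered it through nTh1 alone, and Ccl17 through the labelled-naive array alone. There, 6 of 16 myeloid and 4 of 7 B cell markers were also at least 2-fold higher in nTh1 and none lower. Of the NK and CD8 T cell markers 2 of 7 were higher and 1 lower, and of the mast cell and basophil markers 1 of 3 was higher and 1 lower. The part of these markers in these counts was not tested. Centring moved all genes there from 246 higher and 565 lower to 167 and 799, and left the members' counts at 3 and 6.

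**Figure D4:**
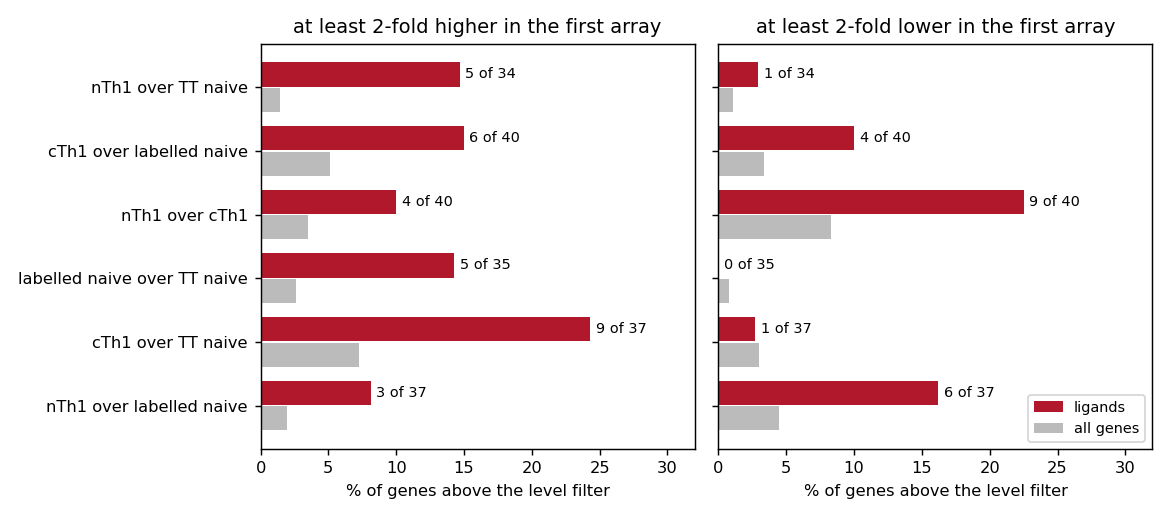
Share of genes above the level filter (horizontal axis, percent) that were at least 2-fold higher (left) or lower (right) in the first array of each comparison, for the ligands (red, with their counts) and for all genes (grey). The ligands' share is highest for cTh1 over TT naive on the left, 9 of 37, and for nTh1 over cTh1 on the right, 9 of 40. Comparisons share arrays and have no replicates.

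Members that are neighbours in the genome were alike in some clusters and not in others. In the chemokine cluster of Ccl9, Ccl6, Ccl3 and Ccl4, the first 3 genes were at least 2-fold higher in nTh1 than in TT naive, and Ccl4 differed by 0.48. In the cluster of Ccl2, Ccl7, Ccl11, Ccl12, Ccl8 and Ccl1, no gene had a 2-fold range. Cxcl2 had a range of 1.12 beside Cxcl1, Cxcl3 and Cxcl15 with ranges of 0.38, 0.37 and 0.11. Tnfsf4 had a range of 1.89 beside Tnfsf18 with 0.41. Cxcl1, Cxcl3, Cxcl15, Tnfsf18 and, in the cluster of Ccl2, all genes but Ccl7 stayed below the filter on every array. Their small ranges do not show that they behave unlike their neighbours.

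Markers of further cell types were read beside these values, and their part in them was not tested. Fibroblast and endothelial markers, known sources of CXCL12 and CCL2, had none of 6 members at 2-fold in any of the 6 comparisons. Among dendritic cell markers 1 of 6 was higher by 2-fold or more in nTh1 over TT naive, Itgax, at 6.95 and 5.91, and 1 of 6 in cTh1 over TT naive, Flt3, at 7.02 and 6.02. Of the mast cell and basophil markers Cpa3 was higher in nTh1 than in TT naive, at 8.70 and 7.05 (1 of 2). Hdc was higher on the labelled-naive array than in TT naive, at 7.39 and 6.21 (1 of 3). Of the thymic epithelial markers Prss16 was higher in cTh1 than in TT naive, at 7.36 and 6.29 (1 of 7), and than on the labelled-naive array, at 6.26. Of the 8 erythroid markers 2 were measured, and none above the filter differed by 2-fold.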

How the data were processed

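Per the submitters' processing notes, the deposited log2 values were made with RMA in Affymetrix Expression Console 1.3.1 from 1 array per population. Per the labels' protocols, 300 ng of total RNA was labelled. No annotation version or genome build is named in the sources used here. All 41345 probe sets had values, and 0 columns stayed unmatched. Of them 23521 had 1 gene symbol in the platform annotation, 1814 several and 16010 none. Per gene the probe set with the highest mean was used, and probe sets with several symbols were left out. RefSeq tables of GRCm38.p6 held all 79 members by symbol and were used for names, neighbours and promoters. Genes were counted at 2-fold or more, with the level filter at the median of all values. The counting code was also run on simulated data with known answers. The noise there was smaller than the spread between probe sets, and the planted genes lay past both filter and threshold. That run checked the code alone, not how the counts hold under the noise of these arrays.

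Named genes followed a rule: the 10 highest and 10 lowest members past 2-fold in each comparison, the 4 members of each role group with the largest range, those next to the threshold, the 4 genes of largest range in each receptor or ligand list, receptors of named members, and any marker. Members outside it, such as Ccl2, Il1a, Il2, Il6, Il18 and Csf2, are named to account for all groups, and were chosen after their values were seen. The members and lists were chosen with earlier results of these data known. Alternative settings dropped the level filter, set it at the 75th percentile, centred each array, or used the mean of all probe sets or a 3-fold threshold. Python 3.11.15, numpy 2.4.6, pandas 2.3.3 and matplotlib 3.10.9 were used.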

Additional observations from a re-analysis of the deposited data

How the results depend on the processing

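No paired analysis was possible because each population had 1 array. The 12 counts of members were recomputed under 5 alternatives, and 45 of the 60 values lay within 1.5 times the main count. With the level filter raised to the 75th percentile, 8.39, nTh1 over TT naive had 1 higher and 0 lower member, cTh1 over the labelled-naive array 2 higher, nTh1 over cTh1 2 higher and 5 lower, cTh1 over TT naive 4 higher, and nTh1 over the labelled-naive array 0 higher. At 3-fold, nTh1 over TT naive had 3 higher and 0 lower, cTh1 over the labelled-naive array 2 higher, nTh1 over cTh1 1 higher, cTh1 over TT naive 4 higher and 0 lower, and nTh1 over the labelled-naive array 3 lower. With centred arrays, cTh1 over TT naive had 0 lower. The stricter filter and threshold take in fewer genes by construction. Centring shifts every gene of a comparison alike, and the mean of probe sets can alter only genes with several, here Ccl27a and Csf2, so neither bears on the stability of the other members. Precision is limited by having 1 array per population.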
